A study of Homo sapiens with 4 samples.

Results

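The major histocompatibility complex (MHC) is the stretch of chromosome 6 that carries the HLA genes, whose proteins present peptides to T cells. Its methylated regions were taken as all peaks of 2 deposited lists that overlapped chromosome 6 from 29.6 to 33.4 Mb (hg19), whatever their height. This gave 652 of 296521 peaks in PKCl/i knockout (KO) cells and 574 of 261657 peaks in control (WT) cells. Position alone chose them, and no measured value was used. They were split at 31.48 and 32.35 Mb into class I, class III and class II, and peaks were placed by their midpoint.

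DNA methylation was profiled by methylated DNA immunoprecipitation sequencing (MeDIP-seq), in which an antibody against 5-methylcytosine enriches methylated fragments. The cells were C42B, an established prostate cancer line, untreated and harvested 48 h after plating. The KO group (sgPKCl/i) carried a guide RNA against the atypical protein kinase PKCl/i, and the WT group (sgC) a control guide. Each genotype had 1 immunoprecipitated and 1 input library, and whether the KO cells were a clone or a pool was not given in the sources used here. With 1 library per group no difference between genotypes had a replicate check, and no p-value is given. Intervals are at the 95% level and cover counting error only, or the scatter of regions within these libraries. The title of the series links PKCl/i deficiency to serine and one-carbon metabolism, the source of methyl groups, and the genotypes are compared here for methylated regions of the MHC.

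The MHC is ordered by function along the chromosome. Class I genes such as HLA-B and HLA-C present peptides from inside the cell on nearly all cells, and many tumours lower their expression. Class II genes such as HLA-DRA and HLA-DQB1 present engulfed peptides, mainly on professional antigen-presenting cells, and lie beside TAP1, TAP2, PSMB8 and PSMB9, which make and transport class I peptides. Class III, between them, holds no HLA genes but is packed with others, among them the cytokines TNF and LTA, the complement components C2 and CFB, and the histone methyltransferase EHMT2. In RefSeq gene order the class I list ran from HLA-F to MICB and spanned 49 protein-coding genes. The class III list ran from DDX39B to NOTCH4 with 58, and the class II list from HLA-DRA to DAXX with 32. That annotation is on another build, GRCh38.p14, so it gave names and order only, and no peak was assigned to a gene.

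Methylated regions were dense in the MHC in both genotypes, at about 2 times the density of the rest of chromosome 6. There were 172 peaks per Mb in KO cells (158.7 to 185) and 151 in WT cells (138.9 to 164). The rest of the chromosome held 84.4 in KO cells and 70.1 in WT cells. The ratio of MHC to rest was 2.03 in KO cells and 2.15 in WT cells. Peaks covered 11.0% of the MHC in KO cells and 9.17% in WT cells, against 4.53% of the rest of chromosome 6 in KO cells and 3.61% in WT cells. The neighbouring stretches differed from each other. The 3.8 Mb before the MHC held 147 peaks per Mb in KO cells and 130.0 in WT cells, and the 3.8 Mb after it held 272 in KO cells and 232 in WT cells. The MHC thus lay between its neighbours in density, and the rest of the genome held 98.4 peaks per Mb in KO cells and 86.9 in WT cells. KO peaks outnumbered WT peaks 1.14 times in the MHC, 1.20 times on the rest of chromosome 6 and 1.13 times on the rest of the genome. With the KO list shortened to the WT number of peaks, 565 KO peaks were left in the MHC against 574 WT peaks, and 562 when it was also scaled to the WT depth.

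Class III had the highest density of peaks of the 3 subregions in both genotypes. A density of peaks is not a level of methylation, and the sequence and CpG density of the subregions were not analysed. It held 237 KO peaks and 213 WT peaks in 0.87 Mb, or 272 peaks per Mb in KO cells (239 to 309) and 245 in WT cells (213 to 280.0). Class I followed with 306 KO peaks and 268 WT peaks, or 163 per Mb in KO cells (145 to 182) and 143 in WT cells (126 to 161). Class II had the fewest, with 109 KO peaks and 93 WT peaks, or 104 per Mb in KO cells (85.2 to 125) and 88.6 in WT cells (71.5 to 108). Class III therefore held 1.67 times the density of class I in KO cells and 1.72 times in WT cells, and 2.62 times that of class II in KO cells and 2.76 times in WT cells. The counting intervals of the subregions did not overlap within either genotype, whereas those of KO and WT overlapped within each subregion. Peaks were clumped, so these intervals are too narrow for the spacing of peaks. Over 38 windows of 100 kb the variance of the count was 13.9 times its mean in KO cells and 13.4 times in WT cells.

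**Figure D1:**
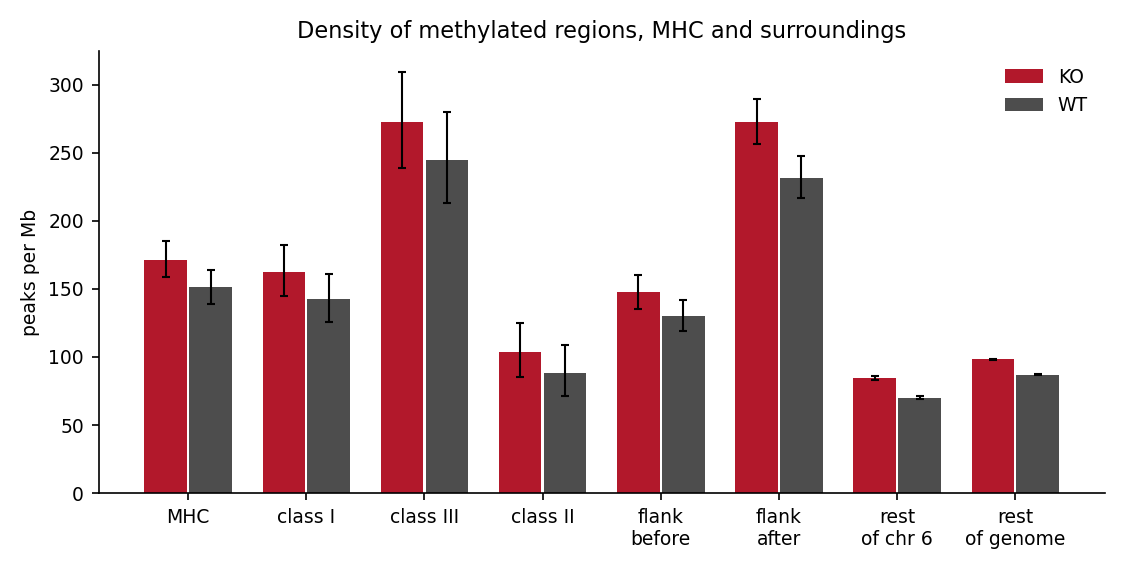
Peaks per Mb (vertical axis) in KO (red) and WT (grey) cells for the MHC, its 3 subregions, the 3.8 Mb on either side, and the rest of chromosome 6 and of the genome. Bars show 1 library each and error bars are exact 95% Poisson intervals of the count. Class III (272 in KO, 245 in WT) stands above class I and class II, at about the level of the stretch after the MHC.

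Class III also held the largest share of long regions among the subregions. The median length was 521 bp in KO cells and 505 bp in WT cells in class III, close to the 510.5 bp in KO cells and 502.5 bp in WT cells of class I. In class II it was 474 bp in KO cells and 471 bp in WT cells. Peaks of at least 1000 bp made up 19.0% of class III in KO cells and 16.9% in WT cells. In class I they were 10.8% of KO and 7.84% of WT peaks, and in class II 10.1% of KO and 5.38% of WT peaks. On the rest of chromosome 6 they were 6.60% of KO and 5.16% of WT peaks. On the rest of the genome they were 10.1% of KO and 8.78% of WT peaks, so only class III lay clearly above the genome in both genotypes. Height is given as the pileup, the number of fragments overlapping the summit, over the floor. The floor is the lowest local background of a list, which in this caller's model is the genome-wide mean pileup. It was 4.42 in KO and 2.92 in WT, so the KO immunoprecipitate was 1.51 times as deep. The median height was 9.04 in KO cells and 8.90 in WT cells in class III. In class I it was 8.59 in KO cells and 8.21 in WT cells, and in class II 7.69 in KO cells and 8.21 in WT cells. On the rest of chromosome 6 it was 7.46 in KO cells and 7.53 in WT cells, and on the rest of the genome 8.14 and 8.55.

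Local background was higher in the MHC than on the rest of chromosome 6, and more so in the KO list. Its median was 1.40 times the floor in KO cells and 1.16 times in WT cells, against 1.06 times in KO cells and 1.02 times in WT cells on the rest of chromosome 6. The stretch after the MHC, at 1.28 times in KO cells and 1.14 times in WT cells, and the rest of the genome, at 1.24 times in KO cells and 1.14 times in WT cells, came closer. Only 7.06% of MHC peaks in KO cells and 22.6% in WT cells had a background at the floor. On the rest of chromosome 6 these were 42.0% of KO peaks and 48.9% of WT peaks. Above the floor the background comes, in this caller's model, from the input library. It rose in coarser steps in the KO list, with recurring values such as 1.28, 1.49 and 1.70 times the floor. In the WT list such values were 1.14, 1.27 and 1.40. Input totals were not listed, and the part of input depth in the KO and WT difference of background was not tested. The median authors' fold, which divides by this background, was 5.25 in KO cells and 5.51 in WT cells in the MHC.

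Methylated regions fell in dense blocks separated by sparse ones, at the same places in both genotypes. In the first 0.9 Mb of class I, from 29.6 to 30.5 Mb, windows of 100 kb held 3 to 17 KO peaks and 3 to 14 WT peaks. From 30.5 to 30.9 Mb they held 26 to 44 KO peaks (360 per Mb) and 21 to 42 WT peaks (320 per Mb). The window from 31.1 to 31.2 Mb held 40 KO and 38 WT peaks, and the next 3, up to 31.5 Mb, held 5 to 9 KO peaks and 3 to 7 WT peaks. From 31.5 to 32.2 Mb, nearly all of class III, there were 232 KO peaks (331 per Mb) and 209 WT peaks (299 per Mb). The windows with most KO peaks were 31.7 to 31.8 Mb with 49 KO and 42 WT peaks, 31.6 to 31.7 Mb with 45 KO and 28 WT, and 31.8 to 31.9 Mb with 44 KO and 45 WT. The window from 30.6 to 30.7 Mb also had 44 KO peaks, with 42 WT peaks. Across the 38 windows the counts of both genotypes had a Pearson correlation of 0.98 and a Spearman correlation of 0.98, as a description of 2 libraries aligned to the same genome.

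**Figure D2:**
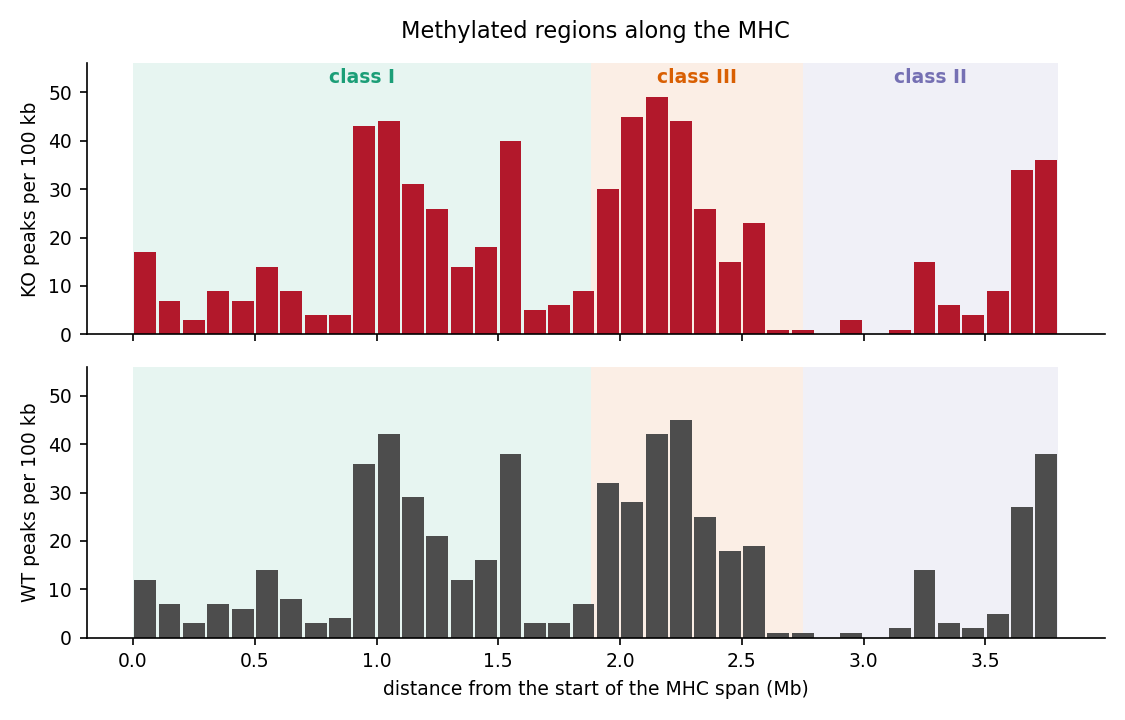
Number of peaks per 100 kb window (vertical axis) against the distance from the start of the MHC (horizontal axis, Mb), for KO cells above and WT cells below, with the subregions shaded. Dense blocks, with up to 49 KO and 45 WT peaks per window, alternate with sparse ones, and the start of class II is nearly empty in both.

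Peaks were sparsest at the border of class III with class II. From 32.2 to 32.8 Mb, 6 windows in a row held at most 3 peaks each, with 6 KO peaks and 5 WT peaks in all. The windows from 32.4 to 32.5 Mb and from 32.6 to 32.7 Mb held 0 peaks in both lists. The longest stretch of the MHC without a peak in either list ran from 32353832 to 32547577, or 194 kb, and the second from 32564418 to 32729346, or 165 kb. Both lay in class II. The third, of 149 kb from 30309906 to 30459055, lay in class I. Of the 16124 stretches without a peak on chromosome 6, which had a median of 2.63 kb, 98 were longer than 194 kb. In RefSeq order HLA-DRA, HLA-DRB5, HLA-DRB1, HLA-DQA1 and HLA-DQB1 are the first listed class II genes on this side, and the DRB genes vary in number between people. What the lack of peaks reflects was not tested. Beyond 32.8 Mb class II held 104 KO peaks (173 per Mb) and 89 WT peaks (148 per Mb) in 0.6 Mb. From 32.8 to 33.2 Mb there were 85 per Mb in KO cells and 60 in WT cells. From 33.2 to 33.4 Mb there were 350 per Mb in KO cells and 325 in WT cells, as dense as the main block of class III.

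Within this sparse stretch 1 region was tall in both genotypes. It lay from 32563717 to 32564417 in KO cells, where the pileup was 83 (66.1 to 103), or 18.8 times the floor. In WT cells it ran from 32563838 to 32564180, where the pileup was 47 (34.5 to 62.5), or 16.1 times the floor. Its background was 3.83 times the floor in KO cells and 5.58 times in WT cells, the highest of any WT peak in the MHC, so its fold was only 4.68 in KO cells and 2.77 in WT cells. The depth-scaled log2 ratio of pileup, KO over WT, was 0.22 (-0.31 to 0.77).

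Most methylated regions of the MHC were found in both genotypes. Of the KO peaks 501 (76.8%, 73.4 to 80.0) shared at least 1 bp with a WT peak, and of the WT peaks 511 (89.0%, 86.2 to 91.5) shared it with a KO peak. Peaks in the KO list only numbered 151, or 23.2%, against 23.9% over all KO peaks of the genome. Peaks in the WT list only numbered 63, or 11.0%, against 12.1% of all WT peaks. Both shares were thus near those of the whole genome. The list-only peaks were low. Their median pileup was 28 in KO cells (15 to 74) and 18 in WT cells (13 to 30), against 43 for the overlapping peaks of KO cells and 26 for those of WT cells. They were also short, with medians of 374 bp in KO cells and 334 bp in WT cells, against 576 bp in KO cells and 520 bp in WT cells for the overlapping ones.

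**Figure D3:**
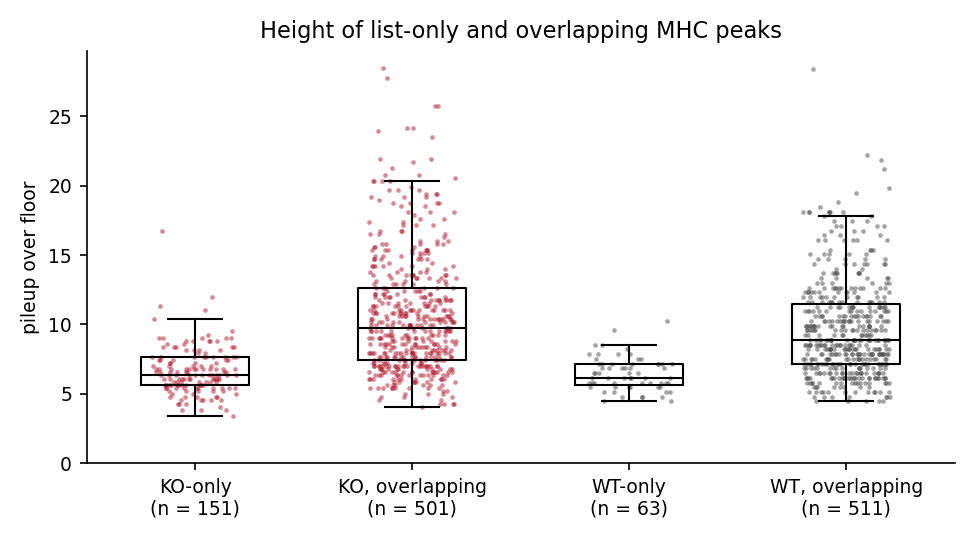
Height of each MHC peak, as pileup over floor (vertical axis), for peaks found in 1 list only and for peaks overlapping the other list, KO in red and WT in grey. Boxes show median and quartiles and whiskers reach 1.5 times the interquartile range. Most list-only peaks sit low, with median pileups of 28 in KO and 18 in WT, and the highest is a KO-only peak of 74.

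Strong peaks were those with a −log10 q of at least 10 in their own list. They numbered 472 in KO cells (72.4%) and 328 in WT cells (57.1%). On the rest of the genome the shares were near these, at 74.5% in KO cells and 57.0% in WT cells. Of the 472 strong KO peaks of the MHC 55 were KO-only, or 11.7% (8.90 to 14.9). This compares with 14.9% of strong KO peaks in the genome and 18.6% on the rest of chromosome 6. WT-only strong peaks numbered 7, or 2.13% (0.862 to 4.35), against 3.24% of strong WT peaks in the genome. By subregion the KO-only share was 14.3% in class I, 6.82% (3.57 to 11.6) in class III and 15.1% (7.77 to 25.4) in class II. The WT-only peaks numbered 2 in class I, 3 in class III and 2 in class II. The KO list was deeper and held more peaks. Shortened to the WT number of peaks, it left 55 KO-only and 15 WT-only strong peaks. Shortening removed none of the 220853 strong KO peaks of the genome, so the 55 could not change. With KO pileups and backgrounds also divided by 1.51 there were 16 KO-only of 331 strong peaks (4.83%) and 15 WT-only of 328 (4.57%). Over the genome the same steps gave 6.10% KO-only and 5.29% WT-only.

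The strongest KO-only region of the MHC lay in class I from 30068326 to 30069001. Its pileup was 74 (58.1 to 92.9), or 16.7 times the floor, over a background of 2.77 times the floor, which gave a fold of 5.66. The nearest WT peak was 25382 bp away. The next in class I, from 30627740 to 30628163, reached 50 fragments at a fold of 7.67, with a WT peak 603 bp away. In class III the KO-only regions with the highest −log10 q were weaker. They lay from 31817024 to 31817427, with a pileup of 37, and from 31498693 to 31499097, with a pileup of 36. The first was only 74 bp from a WT peak and the second 1003 bp. In class II they lay from 33236627 to 33237028 and from 33163343 to 33163770, each with a pileup of 40, and were 2630 and 13705 bp from a WT peak.

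The strong WT-only regions had no pileup above 30. The one with the highest −log10 q (16.2) lay in class III from 31578850 to 31579253. Its pileup was 28 (18.6 to 40.5), or 9.58 times the floor, and its fold 7.31. The other class III region chosen by this rule, from 31668559 to 31668879, had a pileup of 22. Of the 7, the tallest, named after its value was seen, ran from 31855322 to 31855716 and had 30 fragments at a fold of 4.35. In class I the regions starting at 30160963 and 30549113 had a pileup of 21 each. In class II those starting at 32890946 and 32749313 had pileups of 22 and 21, and the second lay in the sparse stretch, 19647 bp from any KO peak. Over the 7 the pileup ran from 21 to 30 in WT cells. The lowest pileup of any KO peak in the genome was 14. That value is not scaled for the deeper KO library and does not give the height needed for a call in the MHC.

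Regions methylated in KO and in WT cells had similar heights. Pairs were formed of 461 peaks in each list that overlapped a single peak of the other list and of which the same held in return. They included 220 in class I, 167 in class III and 74 in class II, and left 40 KO and 50 WT peaks in overlaps of several peaks. With pileups scaled by the floors, the log2 ratio of KO over WT had a median of 0.11 (0.07 to 0.15), with an SD over pairs of 0.35. It was 0.05 (0.04 to 0.05) on the rest of chromosome 6, 0.04 (-0.01 to 0.09) in the stretch before the MHC and 0.09 (0.06 to 0.12) in the one after it. The subregions did not differ beyond their intervals, at 0.11 (0.06 to 0.17) in class I, 0.12 (0.02 to 0.18) in class III and 0.08 (-0.01 to 0.21) in class II. On average the background was also higher in KO cells. The mean log2 ratio of local background was 0.21 in the MHC and 0.10 on the rest of chromosome 6, and its part in the pileup ratio was not tested. Over the 461 pairs, which share their libraries, the log2 ratios of pileup and background had a Pearson correlation of 0.06 (Spearman 0.04). In the 24 windows with at least 5 pairs, the median pileup ratio and mean background ratio had a Pearson correlation of 0.61 (Spearman 0.47). The median log2 ratio of pileup was 0.13 (0.07 to 0.17) over 355 pairs with backgrounds above the floor in both lists. Over the 16 pairs at the floor in both lists it was -0.09 (-0.44 to 0.26). The ratio of the authors' fold, which divides by that background, had a median log2 of 0.00 (-0.05 to 0.06) in the MHC and 0.07 (0.06 to 0.07) on the rest of the chromosome. The summits of a pair lay a median of 45 bp apart.

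Pairs at least 1.5-fold higher in KO cells numbered 41 of 461 (8.89%, 6.46 to 11.9), against 5.14% of the pairs of the genome. Pairs at least 1.5-fold lower numbered 10 (2.17%), against 3.6%. By the ratio of the authors' fold 46 pairs (9.98%) were higher and 42 (9.11%) lower, against 9% higher and 7.37% lower among the pairs of the genome. Among the 272 pairs strong in both lists 14 (5.15%) were higher and 3 lower, against 2.94% higher and 2.37% lower among such pairs of the genome. Among the 364 pairs with a background of at most 2 times the floor in both lists 26 (7.14%) were higher and 8 (2.20%) lower, against 4.72% higher and 3.96% lower in the genome. At a 2-fold limit 2 were higher and 0 lower. Of the 24 windows with at least 5 pairs, 19 had a median ratio above 0, and the medians ran from -0.15 to 0.31.

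**Figure D4:**
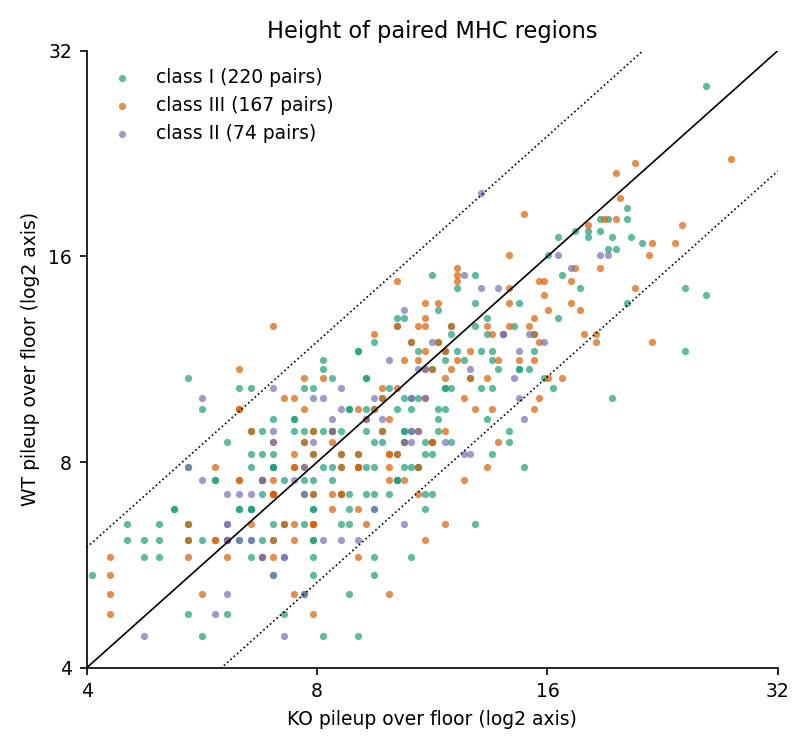
Height of each of the 461 paired MHC regions, as pileup over floor, in KO cells (horizontal) and WT cells (vertical), both on log2 axes, coloured by subregion. The solid line marks equal height and the dotted lines 1.5-fold differences. Below the lower dotted line lie the 41 pairs higher in KO, and above the upper one the 10 pairs lower in KO.

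**Figure D5:**
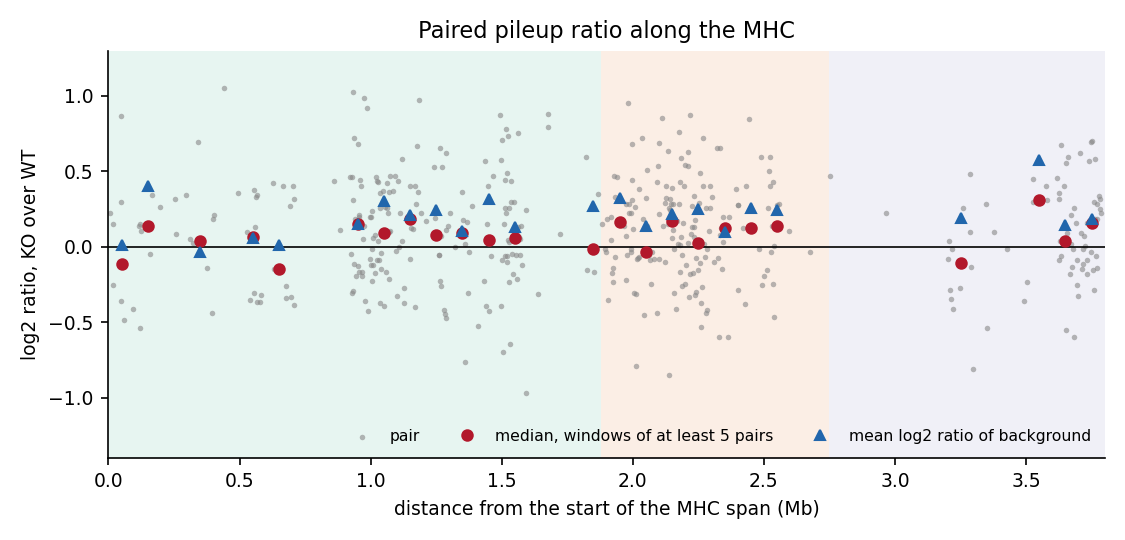
Depth-scaled log2 ratio of pileup, KO over WT (vertical axis), against the distance from the start of the MHC (Mb), for each pair (grey), with the median (red) and the mean log2 ratio of background (blue) in windows of at least 5 pairs. The medians lie between -0.15 and 0.31 in all 24 such windows, and 19 of them above 0.

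The 2 tallest pairs of each subregion were chosen by KO pileup alone, a choice that favours high ratios of KO over WT. Their log2 ratios ran from -0.14 to 0.88 and do not describe tall regions in general. In class I the region from 29973870 to 29975637 had a pileup of 114 (94.0 to 137) in KO cells, 25.8 times the floor, and 83 (66.1 to 103) in WT cells, 28.4 times the floor. Its log2 ratio was -0.14 (-0.56 to 0.29), an interval that includes 0. The region from 31276048 to 31276637 also had a pileup of 114 in KO cells, against 41 (29.4 to 55.6) in WT cells, and a log2 ratio of 0.88 (0.35 to 1.43). In class III the tallest pair, from 31648884 to 31651705, was 2822 bp long in KO cells and 2804 bp in WT cells. Its pileup was 123 (102 to 147) in KO cells and 65 (50.2 to 82.8) in WT cells, a log2 ratio of 0.32 (-0.12 to 0.78). The next, from 32134271 to 32135627, had a pileup of 106 in KO cells and 52 in WT cells (0.43, -0.06 to 0.94). In class II the region from 32860723 to 32861644 had a pileup of 85 in KO cells and 47 in WT cells (0.26, -0.27 to 0.80), and the highest KO fold of that subregion, 14.2.

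Of the longest KO peak of each subregion, 1 was matched by a single WT peak and 2 by several. In class III the peak from 31782555 to 31785410 was 2856 bp long in KO cells, and a single WT peak of 2684 bp overlapped it. In class I the peak from 30545865 to 30548274 was 2410 bp long in KO cells, where 3 WT peaks covered 1631 bp in all. In class II the peak from 33372678 to 33374907 was 2230 bp long in KO cells, and 3 WT peaks covered 1803 bp. These peaks were chosen from the deeper KO list. The longest WT peaks were 2500 bp in class I, 2804 bp in class III and 1536 bp in class II, each overlapping a single KO peak. In all, 19 KO peaks overlapped 2 or more WT peaks, and 11 WT peaks overlapped 2 or more KO peaks.

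Among pairs strong in both lists, the extremes of the ratio differed in their background. The most KO-high pair of class I lay from 30041969 to 30043508, with a pileup of 107 (87.7 to 129) in KO cells and 34 (23.5 to 47.5) in WT cells, a log2 ratio of 1.06 (0.49 to 1.66). Its background was 4.26 times the floor in KO cells and 1.29 times in WT cells, so that its fold was lower in KO cells, at 5.44, than in WT cells, at 7.35. In class III the most KO-high pair, from 31819594 to 31820342, had a pileup of 97 in KO cells and 35 in WT cells (0.87, 0.30 to 1.47). Its background was also higher in KO cells, at 3.19 times the floor against 1.65 in WT cells. In class II the most KO-high pair, from 33345547 to 33346010, had a pileup of 66 in KO cells and 27 in WT cells (0.69, 0.03 to 1.39), with a background of 1.06 times the floor in KO cells and 1.00 times in WT cells.

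In class I the most KO-low strong pair was smaller in size of difference than the most KO-high one, at -0.49 against 1.06. The 2 extremes were near equal in size in class III, at -0.85 and 0.87, and close in class II, at -0.60 and 0.69. In class III the region from 31736155 to 31736533 had a pileup of 31 (21.1 to 44.0) in KO cells and 37 (26.1 to 51.0) in WT cells, a log2 ratio of -0.85 (-1.59 to -0.12) after scaling for depth. In class II the region from 33282672 to 33283488 had a pileup of 58 in both genotypes, which is 13.1 times the floor in KO cells and 19.8 times in WT cells (-0.60, -1.15 to -0.05). In class I the lowest, from 29659794 to 29660380, had a pileup of 27 in KO cells and 25 in WT cells (-0.49, -1.33 to 0.36). These intervals were not adjusted for choosing the extremes of 272 pairs.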

How the data were processed

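MeDIP-seq of C42B cells gave 1 list of peaks per immunoprecipitated library. FastQC, BWA and MACS2 were used with hg19, per the submitters' processing notes, and versions and parameters are not given in the sources used here. Each list was tied to its library by the words KO or WT and 5mC in its name. The deposited pileup signal is a whole number of fragments at the summit, not scaled between libraries by the authors. The authors' fold is a ratio of pileup to local background, with 1 added to each, and the deposited −log10 p and −log10 q come from the caller. The lowest −log10 q was 2.00 in KO and 2.01 in WT.

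The local background was obtained by adding 1 to the pileup, dividing by the fold and subtracting 1. With it the Poisson upper tail differed from the listed −log10 p by at most 0.000329 in KO and 0.000573 in WT. Library totals were not listed, so depth was taken from the floors of the background. The depth-scaled KO list was computed without random draws. Intervals are exact Poisson (counts), exact Clopper-Pearson (shares and pileup ratios) or order-statistic (medians), at the 95% level. The functions were tested on simulated data. Python 3.11.15, numpy 2.4.6, scipy 1.17.1 and pandas 2.3.3 were used.

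Members, lists and rules were chosen with earlier results of these data known. Regions named, in each subregion, were the 2 tallest pairs by KO pileup, the pairs strong in both lists with the highest and lowest ratio, the 2 list-only peaks with the highest −log10 q in each list, and the longest KO peak. Also named were the 3 longest stretches without a peak, the 3 windows with most KO peaks and those with none. Blocks of neighbouring windows and the sparse stretch were chosen after the windows were seen. Promoters and sequences of peaks were not analysed here, since no genome or annotation of hg19 was used. All 48 genes of the lists were found in RefSeq by symbol.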

Additional observations from a re-analysis of the deposited data

How the results depend on the processing

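Counts were held to 1.5 times and ratios and medians to their 95% intervals. Across 15 results 51 alternatives were tried, of which 28 kept the value inside, 22 moved it outside and 1 turned its sign. The cause was not tested except where the construction shows it. The median log2 ratio of pileup was -0.0016 when taken from the authors' fold, which divides out the background; it ranged from 0.07 to 0.11 under the other 4 alternatives. With that ratio 46 pairs were at least 1.5-fold higher and 42 lower in KO. Of 272 pairs strong in both lists 14 were higher and 3 lower; of 364 with low background 26 were higher and 8 lower; at 2-fold 2 were higher and 0 lower. KO-only and WT-only strong peaks numbered 139 and 54 at a −log10 q of 5, and 4 and 0 at 20, where 0 of 96, by a limit of 3 counts, allows a share of up to 3.12%. They numbered 93 and 34 with 50% reciprocal overlap, 32 and 3 with no other peak within 1000 bp, and 16 and 15 with the KO list scaled to the WT depth and shortened. Shortening alone gave 55 and 15. It removed no strong KO peak, so the 55, counted among the 28 values kept inside, could not change. A fold of at least 5 left, by construction, 343 KO and 355 WT peaks and a KO density ratio to the rest of chromosome 6 of 1.86. Strong peaks alone left 328 in WT, with a density ratio of 2.36. Moving the inner boundaries by 100 kb kept every subregion count within 1.5 times. No paired analysis was possible because a genotype had only 1 immunoprecipitated library. Unequal depth, with unlisted input totals, limits every comparison of KO with WT.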

Other observations

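The window of class I from 30.0 to 30.1 Mb, named after its values were seen, held the tallest KO peak of the MHC. The median log2 ratio of pileup of its 3 pairs was 0.35, lower than the 0.79 of 3 pairs from 31.2 to 31.3 Mb. That tallest KO peak, from 30038679 to 30039642, had a pileup of 126 (105 to 150.0) in KO cells, 28.5 times the floor. It overlapped 2 WT peaks with pileups of 37 (26.1 to 51.0) and 18 (10.7 to 28.4), which are 12.7 and 6.16 times the WT floor. The same window held the most KO-high strong pair of class I, with pileups of 107 in KO cells and 34 in WT cells, and the strongest KO-only region of the MHC, with a pileup of 74. A neighbouring pair from 30094838 to 30095765 had a pileup of 58 in KO cells and 30 in WT cells. Scaled for depth these were 13.1 times the floor in KO cells and 10.3 times in WT cells. Its authors' fold was lower in KO cells, at 5.19 against 7.14 in WT cells, as in the most KO-high strong pair. The fold was higher in KO cells for the tallest KO peak, at 12.2 against 5.51 and 3.10 in WT cells. For the pair starting at 30004353 it was 5.41 in KO cells and 5.29 in WT cells. The first peak of the window, from 30004353 to 30004769, had a pileup of 35 in KO cells, 7.91 times the floor, and 20 in WT cells, 6.84 times the floor. Backgrounds of the tall KO peaks were 2.13, 4.26, 2.77 and 2.34 times the floor in KO cells, and those of the WT peaks overlapping them 1.14 to 2.02 times. The part of the background in these differences was not tested.

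By whole megabases, the stretch from 31 to 32 Mb held 272 KO and 239 WT peaks. It had more peaks than 91.7% of the 2902 windows of the genome with any peak in KO cells and 90.7% in WT cells. The megabase from 32 to 33 Mb, with 65 KO and 59 WT peaks, lay above 48.1% of windows in KO cells and 51.0% in WT cells.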
